A study of Mus musculus with 4 samples.

Results

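Agt-type astrocytes are astrocytes of the adult mouse brain that carry more of the genes Agt, Slc6a11, Itih3, Spon1, Igsf1 and Sfrp5 than of the genes Mfge8, Lhx2, Rorb, Grin2c, Dclk1 and Fjx1. They made up 760 of the 10067 filtered cells of the series. The study took the whole brain, freed of meninges, from each of 4 C57BL/6J males aged 90 days, dissociated it with enzymes at body temperature and made 1 droplet library of single-cell RNA per animal with the 10x Genomics 3′ chemistry. In 2 animals no inhibitors were used. In the other 2 animals a cocktail was present from perfusion on, made of actinomycin D and triptolide, which block transcription, and anisomycin, which blocks translation and was added from the dissection step. All 4 libraries carry the same batch label. The brain region of a cell was not measured, so the type is called by its leading gene Agt.

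A cell was taken as a member from the molecules counted in it (unique molecular identifiers, UMIs). It needed at least 400 detected genes, at most 20% mitochondrial UMIs, a UMI of at least 3 of the 7 astrocyte genes Aqp4, Gja1, Slc1a2, Ntsr2, Atp1b2, Slc4a4 and Gjb6, and a UMI of at most 1 of the 5 genes Cldn5, Flt1, Mog, Tmem119 and P2ry12, which mark endothelial cells, oligodendrocytes and microglia. It had no UMI of Gdf10, a Bergmann glia gene, and more of the 6 Agt-type genes detected than of the 6 telencephalic-type genes. The cells were thus chosen by the levels of these 25 genes. The values of those genes below describe the choice, and every level compared between astrocyte types is a description with no test. The same gate gave 907 telencephalic-type astrocytes, with more of the other 6 genes detected, 315 tied astrocytes and 189 Gdf10-positive astroglia. Below, 4 values in a row are in the order without inhibitors replicates 1 and 2, then with inhibitors replicates 1 and 2.

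Astrocytes take up released transmitter, buffer potassium, couple through gap junctions and secrete proteins into the brain's extracellular space. They keep a regional identity from development. Astrocytes of the telencephalon (cortex, hippocampus, striatum and olfactory bulb) express forebrain transcription factors such as Lhx2, whereas astrocytes of the diencephalon, midbrain and hindbrain are known for high expression of Agt. Agt encodes angiotensinogen, the precursor that renin and angiotensin converting enzyme cut into the angiotensin peptides, and astrocytes are its main source in the brain. Slc6a11 encodes the GABA transporter GAT-3, Slc4a4 a sodium bicarbonate cotransporter, Etnppl an enzyme that degrades phosphoethanolamine, and Itih3 a heavy chain of the inter-alpha-trypsin inhibitors that bind hyaluronan.

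The 4 libraries held 12487 barcodes with 5134359 to 7529804 UMIs each. The members numbered 203, 236, 148 and 173 per animal, with 286405 to 388803 UMIs per animal in sum and a median of 1454.5 UMIs per cell. Telencephalic-type cells had a median of 1780 UMIs and Gdf10-positive cells 2449. Of the barcodes, 67 occurred in more than 1 library, and 0 of these were members. A search for doublets marked 206 cells (2.05%), 7 of them members.

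The gate also admitted cells with transcripts of other cell types. In 172 members (22.6%) at least 3 genes of another type's marker list were detected, or at least 2 of the olfactory ensheathing glia list, against 25.1% of telencephalic-type and 58.2% of Gdf10-positive cells. The lists were counted at each cell's full depth and included that of Bergmann glia, with Gdf10. Of the 189 Gdf10-positive cells 60 (31.7%) met the Bergmann glia list, so their share includes markers of their own type. Oligodendrocyte markers were the most frequent, in 24, 26, 20 and 21 members per animal. Microglial markers were found in 5, 16, 4 and 6 members, endothelial markers in 9, 9, 6 and 6 and ependymal markers in 6, 8, 7 and 9. The 30 members with ependymal markers were large, with a median of 5302.5 UMIs and 15.3% of all member UMIs. Ensheathing glia markers occurred in 11, 0, 10 and 0 members, thus in the animals numbered 1 of both groups and in 0 members of the animals numbered 2. Haemoglobin genes made up over 10% of the UMIs of 4 members, 3 in the first and 1 in the second animal without inhibitors. The summed level of the 5 erythrocyte markers was 26468, 5538, 131 and 216 CPM (counts per 1000000 UMIs of the members of an animal) and 526, 638, 167 and 261 CPM once the 172 cells were left out. All 8 microglial, 7 endothelial, 8 oligodendrocyte and 6 ependymal markers received UMIs in members. Levels are therefore also given for the 588 members without such markers, a subset defined after the data had been seen.

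The cells carried their 5 marker genes in every animal. With each cell thinned to 1000 UMIs, which left 682 members and dropped 78 shallower ones, Agt was detected in 67.0 ± 4.18% of members (mean ± SD of 4 animals), in 8.52% of telencephalic-type cells, 15.7% of Gdf10-positive cells and 1.25% of all other filtered cells. Slc6a11 was detected in 87.3 ± 2.27%, 46.9%, 30.04% and 2.93% of the same 4 populations, and Itih3 in 62.6 ± 3.10%, 14.6%, 20.5% and 1.28%. Etnppl, which took no part in the choice, was detected in 44.6 ± 3.74%, 18.1%, 17.2% and 0.663%. For Slc4a4, an astrocyte gate gene, the shares were 72.8 ± 6.78%, 45.1%, 53.8% and 2.54%. Before thinning, Agt was detected in 79.2% of members and Slc6a11 in 93.8%. The shares in other cells, whose median depth was 1588 UMIs before thinning, serve as the background level of each gene.

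The 6 genes that defined the Agt side differed in how sharply they separated the types. Agt (chr8:124556534-124569706, minus strand, gene span in GRCm38) stood at 1114, 1204, 1056 and 1054 CPM in members and at 122, 89.2, 55.7 and 182 CPM in telencephalic-type cells of the same animals. The log2 ratio, computed within each animal on CPM + 5 and averaged over 4 animals, was 3.36 ± 0.70. Slc6a11 (chr6:114131241-114249952, plus strand) stood at 2627, 2799, 2594 and 2923 CPM against 829, 603, 773 and 925 CPM, a log2 ratio of 1.81 ± 0.26. Itih3 (chr14:30908572-30923760, minus strand) was at 1091, 1163, 1028 and 1192 CPM against 192, 127, 133 and 161 CPM, and its log2 ratio was 2.84 ± 0.28. For these 3 genes the lowest of 4 member values lay above the highest telencephalic-type value.

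Spon1, which encodes the matrix protein F-spondin, had a log2 ratio of 2.63 ± 0.24, with 219 to 360.4 CPM in members. Igsf1, an immunoglobulin superfamily membrane glycoprotein, had the highest ratio of the rule genes at 4.41 ± 0.66, with 120.1 to 209 CPM in members and 2.14 to 6.60 CPM in telencephalic-type cells. Sfrp5, a secreted antagonist of Wnt ligands, reached 167 to 251 CPM in members and a log2 ratio of 3.58 ± 0.86. Etnppl, outside the rule, was at 501, 565, 541 and 594 CPM against 221, 175, 208 and 287 CPM, a log2 ratio of 1.31 ± 0.27, and Slc4a4 had a log2 ratio of 1.02 ± 0.14. In the 588 members and the telencephalic-type cells without other types' markers, the log2 ratio of Agt was 3.26, that of Igsf1 4.44 and that of Etnppl 1.23.

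**Figure D1:**
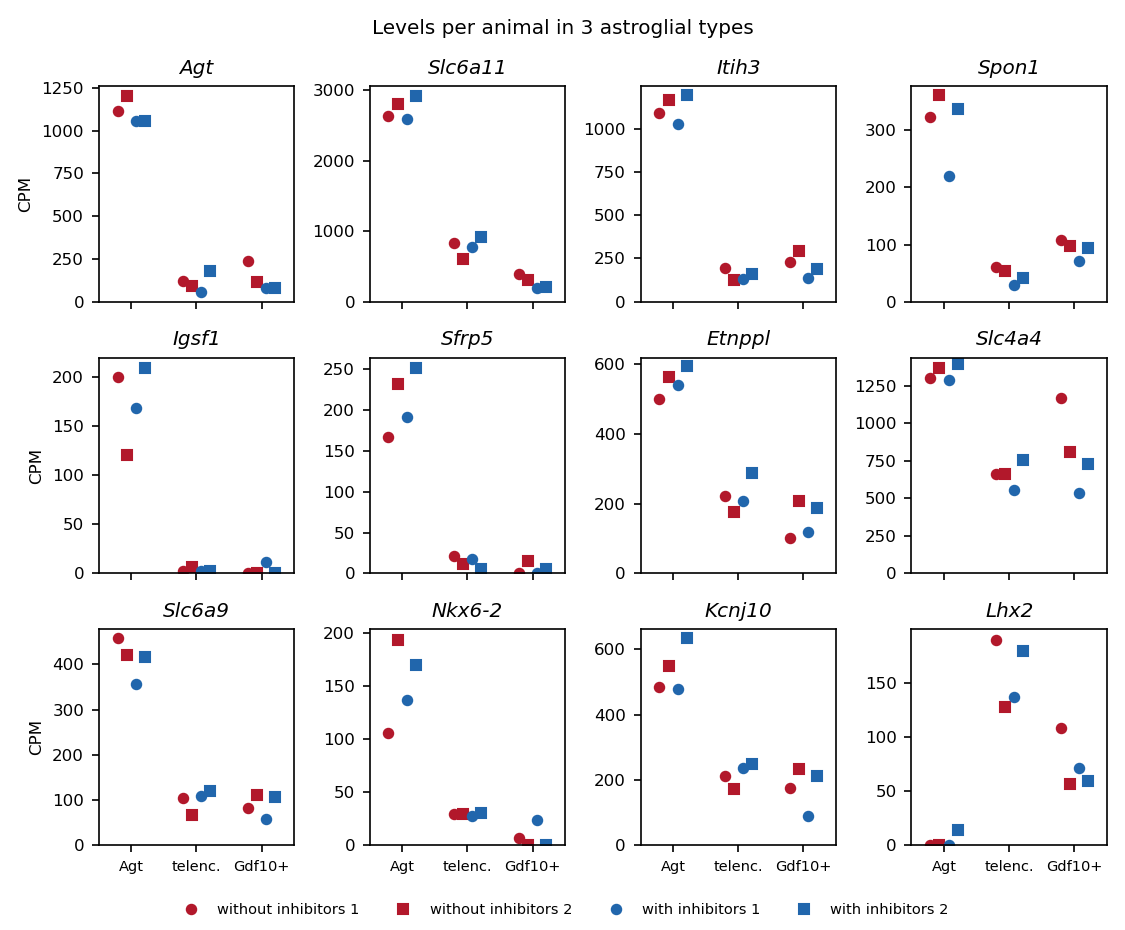
Level in CPM (linear axis from 0) of 12 genes in the Agt-type, telencephalic-type (telenc.) and Gdf10-positive (Gdf10+) cells, 1 point per animal, red without and blue with inhibitors, circles for replicate 1 and squares for replicate 2. For Agt the 4 member values lie at 1054 to 1204 CPM and the 8 values of the other types at 55.7 to 237 CPM, while Lhx2 is lowest in members and highest in telencephalic-type cells.

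On the telencephalic side of the rule, Lhx2, a LIM homeodomain transcription factor of the forebrain, was nearly absent from members. It was at 0, 0, 0 and 14.2 CPM against 189.6, 127, 137 and 179 CPM, a log2 ratio of -4.53 ± 0.87, and the fourth animal alone held the 4 UMIs seen. Mfge8, a secreted bridging protein for phagocytosis, and Dclk1, a microtubule-associated kinase, remained present in members at 381 to 478 and 312 to 454 CPM, with log2 ratios of -1.89 ± 0.20 and -2.33 ± 0.14. The log2 ratio was -2.12 ± 0.14 for Fjx1, -1.86 ± 0.22 for Grin2c, an NMDA receptor subunit, and -1.39 ± 0.30 for the nuclear receptor Rorb. Of the 7 gate genes, Slc1a2, the glutamate transporter GLT-1, was lower in members at 2211, 2531, 2125 and 2572 CPM against 4620, 4106, 4080 and 4748 CPM, a log2 ratio of -0.90 ± 0.15. Aqp4 (0.59), Atp1b2 (0.83), Gjb6 (0.48) and Gja1 (0.35) had positive log2 ratios in all 4 animals, and Ntsr2 had 0.29 ± 0.23.

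The members differed in how clearly they met the rule. The excess of Agt-type over telencephalic-type genes detected was 1 gene in 271 members (35.7%), 2 in 275, 3 in 148, 4 in 48, 5 in 16 and 6 in 2. All 6 Agt-type genes were detected in 12 members and 1 alone in 45, and 159 members had none of the 6 telencephalic-type genes. Of the members 1 gene inside the rule, 28.8% carried markers of another type, and of those 3 genes inside it 16.2%. Agt averaged 0.513 UMIs per 1000 in tied cells, 1.02 in members with an excess of 1, 1.26 with 2 and 1.63 with 3 or more, and 0.317 in cells 1 gene beyond the tie on the other side. Itih3 gave 0.347, 0.938, 1.31, 1.72 and 0.351 in the same order, and Slc6a11 1.91, 2.53, 3.37, 3.57 and 1.19. These 3 were used by the rule. Outside it, Etnppl averaged 0.426 UMIs per 1000 in tied cells and 0.689, 0.616 and 0.648 in members of rising excess, Slc6a9 0.275 and then 0.415, 0.543 and 0.464, and Kcnj10 0.423 and then 0.552, 0.584 and 0.617. The averages of Agt and Slc6a11 were higher at each step, that of Itih3 was nearly equal in tied cells and beyond the tie, and Etnppl and Slc6a9 did not go on rising with the excess among members.

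Across all genes, rule genes included, 2999 had at least 20 UMIs in one of the 2 types in every animal. Of these, 370 (12.3%) were higher in members in all 4 animals and 720 (24%) lower, with a median log2 ratio of -0.09. The ratio was above 1 in all 4 animals for 26 genes and below -1 for 40. The next sentences name the 12 highest and the 12 lowest genes outside the rule, ordered by their least extreme animal. Members and telencephalic-type cells were split by their own expression, so these are descriptions of the 2 sets of cells.

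Slc6a9, the glycine transporter GlyT1 (chr4:117834506-117875198, plus strand), was at 457, 420.5, 356 and 418 CPM in members against 105, 67.7, 109 and 120.4 CPM, a log2 ratio of 2.01 ± 0.40. Gria1, an AMPA receptor subunit, was at 261, 158, 175 and 209 CPM against 51.0, 21.5, 45.0 and 48.7 CPM, a log2 ratio of 2.18 ± 0.34. In Gdf10-positive cells Gria1 was at 213 to 393 CPM, a range that overlapped that of members, and Slc6a9 at 59.1 to 112 CPM, below all members. Nkx6-2, a homeodomain transcription factor, was at 106, 194, 137 and 169.8 CPM against 29.2, 29.7, 27.8 and 30.7 CPM, a log2 ratio of 2.15 ± 0.35, and it was at 0 to 23.6 CPM in Gdf10-positive cells.

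Cd38, an enzyme that consumes NAD, had a log2 ratio of 1.94 ± 0.20 and was low in Gdf10-positive cells (6.78 to 25.5 CPM against 170.1 to 257 CPM in members). Sparc, a secreted matrix-associated protein, was at 1182, 1431, 1265 and 1419 CPM against 476, 413, 437 and 446 CPM, a log2 ratio of 1.57 ± 0.21. Lrig1, a membrane protein that restrains growth factor receptors, had a ratio of 1.61 ± 0.20, the membrane progestin receptor Paqr6 1.72 ± 0.29, the heparan sulfate proteoglycan Sdc3 1.47 ± 0.22 and Gpld1, a phospholipase that releases GPI-anchored proteins, 1.38 ± 0.10. The other 3 of the 12 were Fry (1.51 ± 0.30) and the unnamed genes 5031439G07Rik (1.72 ± 0.24) and A330076C08Rik (1.92 ± 0.91). Without other types' markers the 12 log2 ratios ranged from 1.27 to 2.50.

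Chrdl1, an antagonist of bone morphogenetic proteins, was at 5.86, 2.73, 6.85 and 0 CPM in members against 70.5, 41.3, 96.4 and 64.1 CPM, a log2 ratio of -3.07 ± 0.53. Cspg5, a brain chondroitin sulfate proteoglycan, was at 217, 292, 212 and 279.5 CPM against 1239, 1200, 1167 and 1204 CPM (-2.26 ± 0.24), and Hapln1, a link protein of hyaluronan matrix, had -2.72 ± 0.59. Slco1c1, a thyroid hormone transporter, was at 67.4, 71.0, 68.5 and 77.8 CPM against 340.2, 386, 328 and 346 CPM, a log2 ratio of -2.22 ± 0.12. Atp1b1, a subunit of the sodium pump, had -2.57 ± 0.62, the sulfotransferase Chst2 -2.46 ± 0.21, Dkk3 -2.18 ± 0.20, the sialyltransferase St6galnac5 -2.59 ± 0.81 and Fam13c -3.39 ± 1.16. Mgp, Nov and Fxyd5 were also among the 12, at -3.89 ± 0.61, -3.57 ± 0.51 and -2.53 ± 0.44. Their ratios were -1.40, -1.50 and -0.95 without the cells carrying other types' markers, against -4.02 for Chrdl1 and -2.34 for Cspg5.

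**Figure D2:**
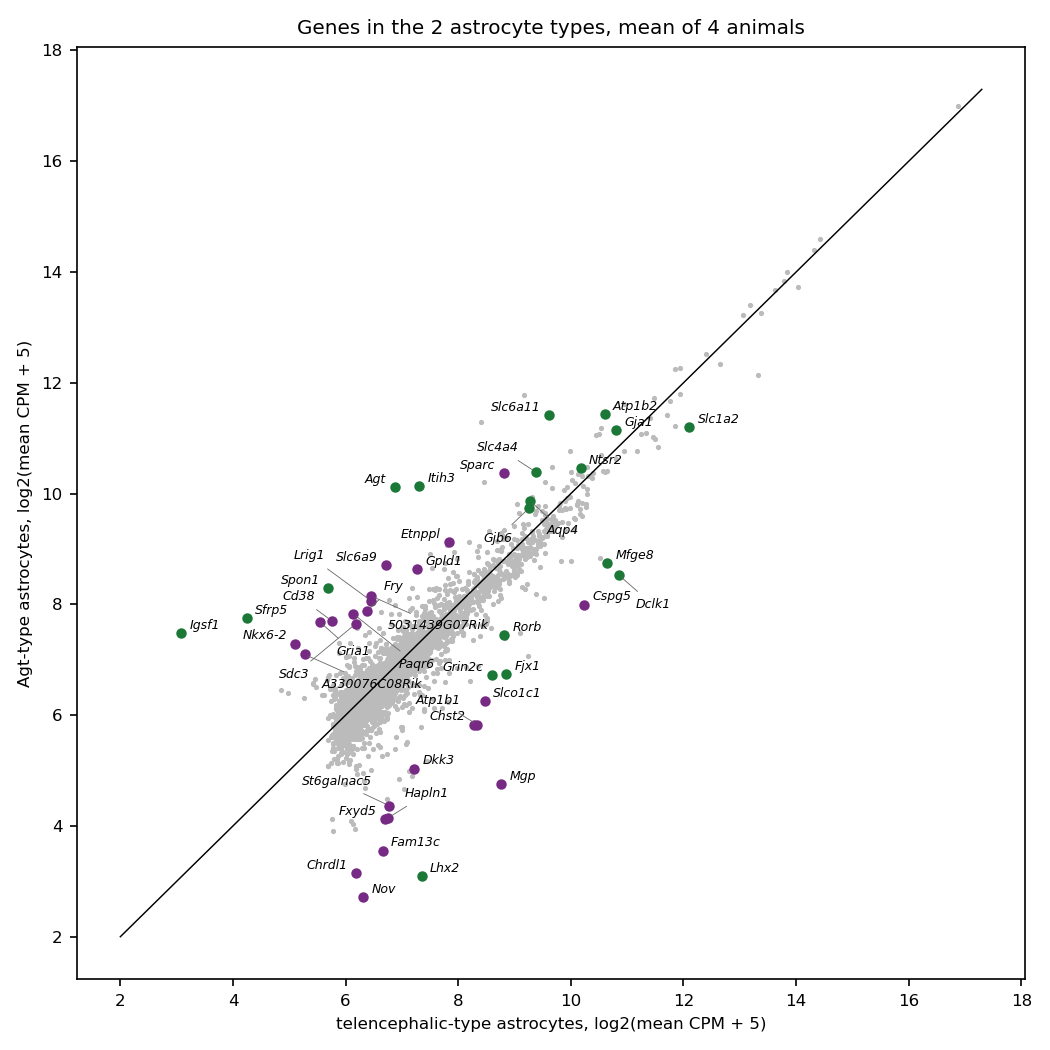
Mean level over 4 animals, as log2 of CPM + 5, in telencephalic-type (horizontal axis) and Agt-type astrocytes (vertical axis) for 2999 genes, with the line of equal level. Green points are genes used by the rule and purple points the named genes outside it, which show Slc6a9, Gria1 and Nkx6-2 above the line and Chrdl1, Cspg5 and Slco1c1 below it.

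Of 11 listed transporters 9 reached 20 UMIs, 5 of these were higher and 3 lower in members in all 4 animals, and the median log2 ratio was 0.37. The rule used 2 of the 9, Slc6a11 and Slc1a2, and of the other 7 there were 4 higher and 2 lower. Among the 5 higher ones were Slc6a11 and Slc6a9, described above, the alanine, serine and cysteine transporter Slc7a10 with 0.56 ± 0.12 and the glutamine transporter Slc38a1 with 0.37 ± 0.28. The 3 lower ones were both glutamate transporters, Slc1a2 as above and GLAST (Slc1a3) with -0.69 ± 0.20, and the glutamine transporter Slc38a3 with -0.24 ± 0.20. Of 16 listed metabolic enzymes 10 were measured, 2 were higher and 4 lower. Gldc, of the glycine cleavage system, was at 23.5, 35.5, 17.1 and 31.8 CPM against 131, 139, 116 and 151 CPM, a log2 ratio of -2.15 ± 0.26. Glul, glutamine synthetase, had -0.51 ± 0.16. Abat, which breaks down GABA, was higher at 0.59 ± 0.23. The signs for Slc1a3, Gldc, Glul and Abat were the same in all 4 animals.

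Of 20 listed transmitter receptors 12 were measured, 5 were higher and 3 lower, and the median log2 ratio was 0.04. The rule used 2 of the 12, and of the other 10 there were 4 higher and 2 lower. The GABA-B receptor subunit Gabbr2 had 1.02 ± 0.27 and the endothelin receptor Ednrb 0.94 ± 0.17, against -1.59 ± 0.34 for the metabotropic glutamate receptor Grm3. Of 16 genes of water, potassium and junction handling 13 were measured, 9 of them were higher and 1 lower, with a median of 0.48, but 5 of the 16 were used by the rule. Of the 8 measured outside the rule, 4 were higher and 1 lower. Kcnj10, the potassium channel Kir4.1, was at 484, 549, 479.8 and 633 CPM against 211, 172, 236 and 249 CPM, a log2 ratio of 1.29 ± 0.27, and after thinning it was detected in 41.1% of members and 19.2% of telencephalic-type cells. Its partner Kcnj16 had 0.62 ± 0.29, the cation channel Trpm3 1.21 ± 0.29 and the carbonic anhydrase Car2 -0.40 ± 0.15. Beside these counts stand 12.3% of all measured genes higher and 24% lower.

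Of 16 listed genes of the angiotensin system 4 reached 20 UMIs, and apart from Agt these were the protease genes Lnpep (-0.34 ± 0.33) and Ctsd (0.10 ± 0.11) and the prorenin receptor Atp6ap2 (-0.28 ± 0.33), none of them higher or lower in all 4 animals. Of the 16 genes, 7 had 0 UMIs in the 760 members, which allows a UMI in up to 0.395% of cells, and these included the angiotensin receptors Agtr1a, Agtr1b and Agtr2. Ren1, encoding renin, had 1 UMI and Ace 15.

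The 10 listed telencephalic regulators gave 140 UMIs in members and 969 in telencephalic-type cells, and their summed level was 96.8 to 138 CPM in the 4 animals against 467 to 578 CPM. Without Lhx2, which the rule used, the ranges were 96.8 to 124 CPM and 340.1 to 389 CPM. Emx2 and Fezf2, expressed in the dorsal and rostral forebrain, were at 0 to 14.2 and 0 to 5.86 CPM in members. The 25 regulators of diencephalon, midbrain, hindbrain and spinal cord summed to 637 to 800.0 CPM in members, 299.8 to 368 CPM in telencephalic-type cells and 448 to 779.8 CPM in Gdf10-positive cells. Apart from Nkx6-2 and Tcf7l2 (0.32 ± 0.26), a thalamic factor, none reached 20 UMIs in every animal in either type. Irx2 had 47 UMIs in members and 6 in telencephalic-type cells, Pax3 32 and 7, and En1, a gene of the midbrain and hindbrain boundary, 25 and 10.

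Of 22 listed secreted and matrix genes, 15 were measured, 8 were higher and 4 lower, and 5 of the 15 were rule genes. Of the other 10 there were 4 higher and 3 lower. Outside the rule, the growth factor midkine (Mdk) had a log2 ratio of 0.69 ± 0.21, the metalloproteinase inhibitor Timp3 0.46 ± 0.13 and the proteoglycan neurocan (Ncan) -0.44 ± 0.07. Of 20 general astrocyte genes, 5 were higher and 8 lower, from Slc1a3 at -0.69 to Sparcl1 at 0.68 ± 0.20, with Apoe at 0.03 ± 0.21, Aldoc at -0.29 ± 0.22 and Clu at -0.62 ± 0.15. Of 9 Notch and BMP response genes, 0 were higher and 4 lower, among them Id4 at -1.08 ± 0.45 and Id1 at -0.67 ± 0.26. Of 17 genes of cholesterol and lipid synthesis, 3 were higher and 5 lower, with the desaturase Scd2 at 0.62 ± 0.06 and Idi1, of the mevalonate pathway, at -0.80 ± 0.29. Fabp7, a fatty acid binding protein, varied between animals at 1492, 330.4, 2604 and 262 CPM in members and had 1.17 ± 1.25, or 0.21 without the cells with other types' markers. Gfap was at 144, 87.4, 99.4 and 42.5 CPM in members, with a ratio of 0.32 ± 1.08 that differed in sign between animals, and of the 32 reactive astrocyte genes 4 were measured, 0 higher and 1 lower. Of 30 immediate early genes 6 were measured, 1 higher and 4 lower, with Btg1 at -1.28 ± 0.16 and Jun at -0.61 ± 0.44. Of 13 chaperone genes 8 were measured, 2 higher and 0 lower, and of 16 glucocorticoid and metal response genes 6 were measured, 0 higher and 1 lower. The chaperone genes Hsp90aa1 and Hsp90ab1 changed sign without the cells with other types' markers. All counts of this paragraph stand beside 12.3% of the 2999 measured genes higher and 24% lower.

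**Figure D3:**
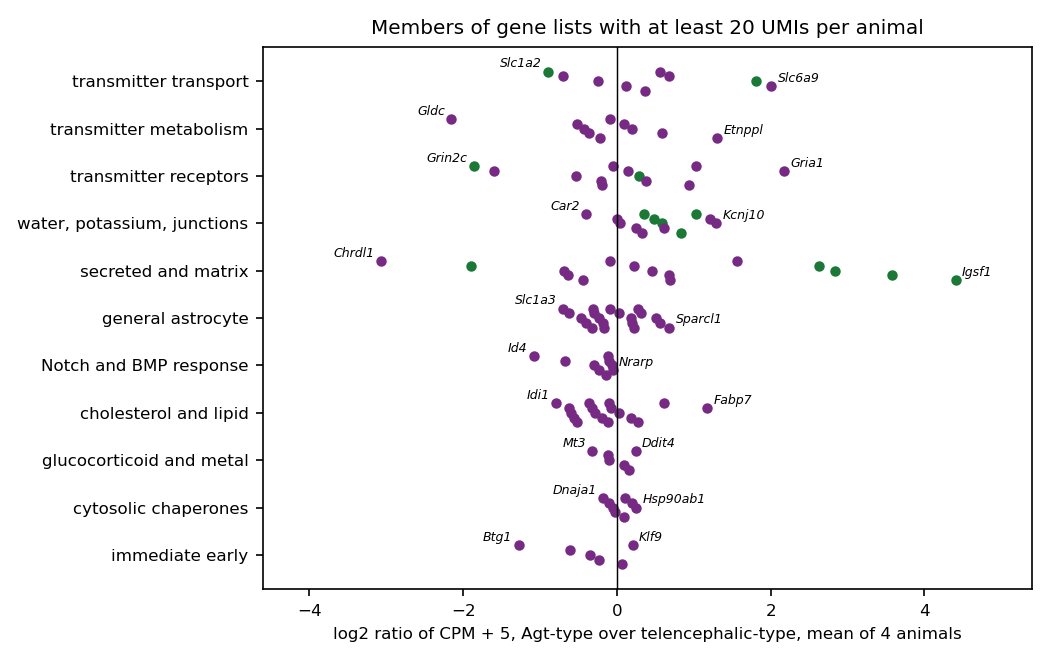
Log2 ratio of CPM + 5 in Agt-type over telencephalic-type astrocytes, mean of 4 animals, for the members of 11 gene lists with at least 20 UMIs per animal in one type (1 point per gene, green where the rule used it). Points of the water, potassium and junction list lie mostly right of 0, up to 1.29 for Kcnj10, and the transport list runs from -0.90 for Slc1a2 to 2.01 for Slc6a9.

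The inhibitor cocktail was used to ask which transcripts appear during tissue dissociation. The first measure is how many Agt-type astrocytes each library held. They made up 9.03% and 8.37% of filtered cells in the 2 animals without inhibitors and 6.96% and 6.02% in the 2 with inhibitors, so the groups did not overlap. The means were 8.70 ± 0.47% and 6.49 ± 0.67% (SD, n = 2 each), a difference of 2.21 percentage points, with p = 0.333 in an exact two-sided permutation test, the smallest p that 2 against 2 animals can give. Among gated astroglia the shares were 38.5%, 34.3%, 34.02% and 33.3%, with means of 36.4 ± 3.0% and 33.6 ± 0.53% and a difference of 2.74 points (p = 0.333, exact permutation test). Without the first animal without inhibitors the second difference was 0.606 points. A share counts cells that passed dissociation and the gate. Groups of the share of filtered cells also did not overlap for tied astrocytes, at 3.38, 3.72, 2.40 and 2.89%. The same held for Gdf10-positive astroglia, at 1.96, 2.06, 1.88 and 1.63%. For telencephalic-type cells, at 9.08, 10.3, 9.22 and 7.55%, the groups overlapped.

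**Figure D4:**
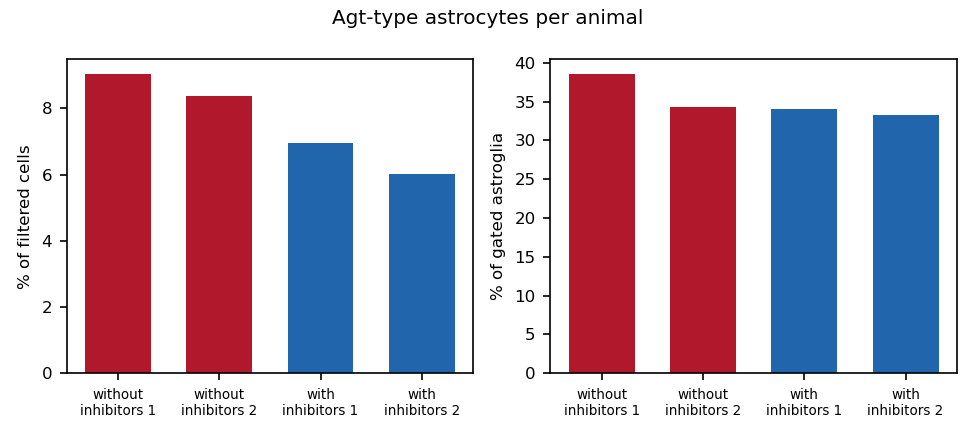
Agt-type astrocytes in each animal, as percent of all filtered cells (left) and of gated astroglia (right), 1 bar per animal from 0, red without and blue with inhibitors. The left shares run from 9.03% to 6.02% with no overlap of the groups, and 3 of the 4 right shares lie between 33.3% and 34.3%.

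Expression of Agt-type astrocytes without inhibitors was then compared with that with inhibitors over animals, using counts summed per animal (edgeR quasi-likelihood test, with a gene called where the adjusted p was below 0.05 and the log2 fold change, without over with inhibitors, exceeded 0.58 in size). Of 5648 genes tested, 0 were called higher (0%) and 0 lower (0%). The unadjusted p was under 0.05 for 148 genes with a higher and 152 with a lower level, 5.31% of those tested, and the smallest adjusted p was 0.478. DESeq2 on the same counts called 3 genes higher, the haemoglobin genes Hbb-bs, Hba-a2 and Hba-a1, and 0 lower. Telencephalic-type astrocytes gave 0 higher (0%) and 0 lower (0%) of 6919 genes tested, with 123 and 157 genes at an unadjusted p under 0.05 and 0 calls in either direction by DESeq2.

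Fos had 8, 11, 1 and 1 UMIs in the 4 animals, too few for the filter on low counts. Without that filter its adjusted p was 0.472 (edgeR). Junb had 6, 10, 4 and 1 UMIs, Ier2 2, 12, 3 and 3, Egr1 0, 2, 0 and 2, Zfp36 4, 4, 3 and 0, the phosphatase gene Dusp1 9, 8, 7 and 4 and the heat shock gene Hspa1a 5, 4, 4 and 6. These counts came from member totals of 362433, 388803, 290503 and 286405 UMIs. For Fos and Junb both animals without inhibitors had more UMIs than both with, in counts and relative to these totals. On both measures this held for none of Ier2, Egr1, Zfp36, Dusp1 and Hspa1a. Among the 5648 genes that passed the filter, the groups of 1979 (35.0%) did not overlap. After thinning, Fos was detected in 1.60, 0.952, 0 and 0% of members and in 12.1, 6.79, 0.482 and 0.465% of cells outside the astroglial gate. Junb was detected in 1.60, 1.90, 1.504 and 0% of members and in 23.5, 21.3, 11.4 and 10.1% of the other cells. Jun, which passed the filter, had 16, 15, 13 and 6 UMIs and a log2 fold change of 0.39 ± 0.44 (SE), with an edgeR adjusted p of 0.975.

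Of 30 immediate early genes 8 were tested, 0 called, with a median log2 fold change of 0.17 beside 0.01 over all 5648 genes, and their summed level was 913, 1016, 1119 and 957 CPM. Of 13 cytosolic chaperone genes 11 were tested, with a median of -0.05. Hsp90aa1 was at 857, 1368, 1217 and 1291 CPM, a log2 fold change of -0.17 ± 0.18. Of the 25 genes of the consensus activation signature of microglia, which was drawn from sorted microglia in another experiment of the same study, 9 were tested, 0 called, with a median of 0.02. The 19 genes the study listed for all brain cell types were chosen on these samples and are not independent evidence, and of these 4 were tested and 0 called. The metallothioneins Mt1 and Mt2, which respond to metals and glucocorticoids, had log2 fold changes of 0.06 ± 0.12 and 0.12 ± 0.15. Gfap had 0.67 ± 0.36 with overlapping groups, and Apoe, the main lipid carrier of astrocytes, 0.02 ± 0.13. The host genes of small nucleolar RNAs could be followed through 2 tested genes with a median of 0.13, and Gas5 was not analysed here.

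Agt was at 1206, 1249, 1136 and 1125 CPM (scaled within the members), a log2 fold change of 0.12 ± 0.14 with an edgeR adjusted p of 0.976. Its groups did not overlap, as those of 1979 of 5648 genes (35.0%) did not, of which 0% were called. Slc6a11 had -0.04 ± 0.12, Itih3 0.01 ± 0.14, Slc4a4 -0.03 ± 0.14 and Etnppl -0.11 ± 0.16. Without the cells carrying other types' markers, Agt had -0.01 and Slc6a11 -0.21. Lists of astrocyte function gave medians of -0.01 for 10 transporters, -0.05 for 14 enzymes, 0.21 for 13 receptors, 0.00 for 15 water, potassium and junction genes, 0.21 for 13 Notch and BMP response genes, -0.11 for 17 lipid genes and -0.06 for 15 secreted proteins, with 0 members called in each.

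Because no gene was called, genes are named from the 5 of each direction with the smallest unadjusted p. Gmppa, a regulator of mannose donor synthesis, had 18, 21, 3 and 2 UMIs and a log2 fold change of 2.59 ± 0.55 (adjusted p = 0.478, edgeR). It had 11, 16, 13 and 11 UMIs in telencephalic-type cells, where the log2 fold change was -0.09. The other 4 with higher levels were Gm26917 (1.37 ± 0.30), the immunophilin Fkbp2 (0.89 ± 0.21), the phosphodiesterase Gpcpd1 (1.22 ± 0.29) and Tecpr1 (1.16 ± 0.32), a gene of autophagosome maturation. Their log2 fold changes in telencephalic-type cells were 0.34, 0.23, -0.05 and 0.14. In the opposite direction stood the myelin gene Mbp, at 505, 606, 749 and 944 CPM with -0.61 ± 0.17, the kinase Hipk1 (-0.88 ± 0.20), Fam183b (-1.05 ± 0.24) and 1700016K19Rik (-0.91 ± 0.25). For each of these genes, which were picked by their p, the groups did not overlap, as for 1979 of the 5648 genes tested (35.0%). Without the filter on low counts edgeR called Gmppa (adjusted p = 0.0165), Gm26917 (0.0307), Gpcpd1 (0.0307) and Fam183b (0.0248), and DESeq2 called none of the genes named here. Summed oligodendrocyte markers were also lower without inhibitors, at 1473, 1854, 2186 and 3073 CPM. So were summed ependymal markers, at 1506, 1782, 1835 and 2353 CPM, and the part of either list in the result was not tested. In members without other types' markers the oligodendrocyte sum was 1011, 926, 1097 and 1108 CPM and the ependymal sum 162, 125, 150 and 76.1 CPM. There the log2 fold change of Mbp was -0.52, and Hipk1, Fam183b and 1700016K19Rik did not pass the filter on low counts. The cells left out there were chosen by these markers among others.

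The 4 largest fold changes of the 5648 genes belonged to haemoglobin genes, none of them called by edgeR. Hbb-bs had 3844, 983, 21 and 30 UMIs, a fitted log2 fold change of 6.29 ± 1.33, an edgeR adjusted p of 0.899 and a DESeq2 adjusted p of 3.31e-06. Hba-a1 had 2828, 606, 4 and 15 UMIs and 7.22 ± 1.71, and Hba-a2 2044, 485, 8 and 12 UMIs and 6.70 ± 1.49. In telencephalic-type cells Hba-a1 had 44, 75, 26 and 411 UMIs, with the highest count in an animal with inhibitors. In members without other types' markers edgeR called 1 of 3359 genes, Hbb-bs at 1.72 on the log2 scale (edgeR adjusted p = 3.92e-07), and 0 lower. Under this cell setting the 5 erythrocyte markers summed to 526, 638, 167 and 261 CPM in members. The sums were similar in the other types, at 511, 565, 161 and 254 CPM in telencephalic-type and 382, 526, 153 and 315 CPM in Gdf10-positive cells. The 4 members with over 10% haemoglobin UMIs and the 13 with at least 3 erythrocyte markers, 6, 7, 0 and 0 per animal, were all from animals without inhibitors. These genes belong to red blood cells and are not astrocyte genes.

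**Figure D5:**
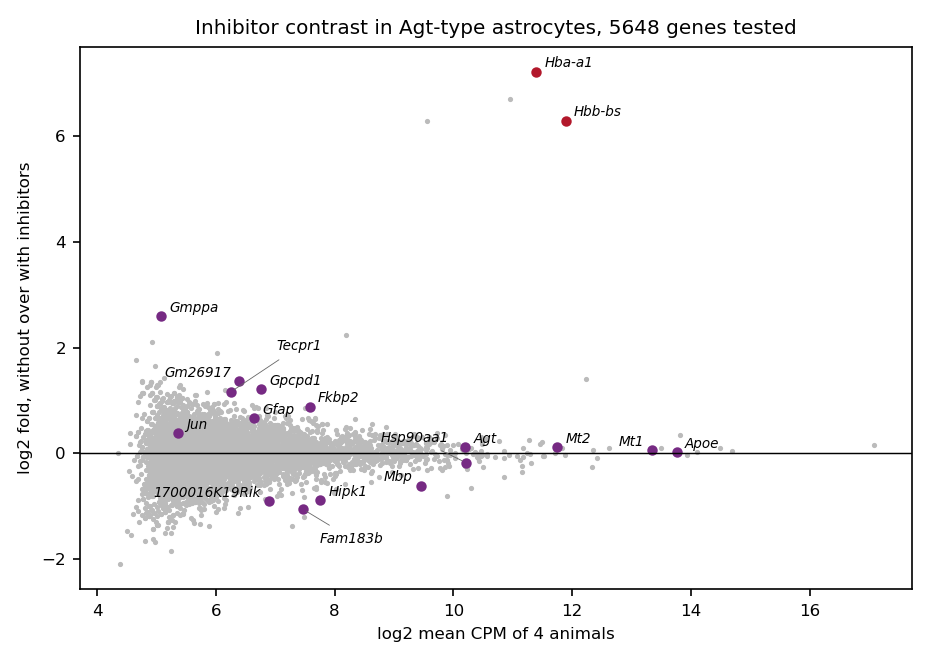
Log2 fold change without over with inhibitors (vertical axis) against the log2 mean CPM of 4 animals (horizontal axis) for 5648 genes in Agt-type astrocytes, with the named genes labelled and haemoglobin genes in red. Agt, Mt1, Mt2 and Apoe lie near 0, and the 2 labelled haemoglobin genes lie above 6.

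Whether the inhibitor contrast differed between astrocyte types was tested with the animal as a block (edgeR, cell type by group term). Against telencephalic-type cells 1 of 7367 genes had a larger contrast in members (0.0136%) and 0 a smaller one (0%), with 154 and 113 genes at an unadjusted p under 0.05. The gene was Lyz2, a lysozyme of myeloid cells, with 5, 66, 6 and 9 UMIs in members and 2, 9, 17 and 9 in telencephalic-type cells. Of its 86 UMIs in members 66 came from the second animal without inhibitors, the animal with 16 of the 31 members with microglial markers. Against Gdf10-positive cells 5 of 5421 genes had a larger (0.0922%) and 4 a smaller contrast (0.0738%). None of these 9 was an astrocyte marker of the fixed lists, and 2 of them, Hba-a1 and Hba-a2, were haemoglobin genes. For Agt the log2 difference between members and telencephalic-type cells was 0.22 ± 0.67 (SE, adjusted p = 0.999, edgeR). For Gfap it was 1.42 ± 0.43, with an unadjusted p of 0.00190 that did not hold over all genes (adjusted p = 0.999, edgeR).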

How the data were processed

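Single-cell suspensions of 4 whole mouse brains were profiled with 1 library per animal, 2 without and 2 with inhibitors. The authors aligned reads with Cell Ranger 3.0.0 to mm10 and deposited raw UMI counts of the barcodes called as cells. Their later cell filters were not applied in these files. Members were found as described above, and lists and members were chosen with earlier results of these data known. UMI counts were summed per type and animal and tested with edgeR 4.0.16 (filterByExpr, TMM, robust quasi-likelihood fit) with DESeq2 1.42.0 as alternative, in R 4.3.3. Adjusted p-values are Benjamini-Hochberg over all genes tested. The test script was checked on simulated counts. Ratios between types use CPM with joint TMM scaling and a pseudocount of 5. Replicates are separate animals, so p-values of the inhibitor contrast within a type measure the spread between animals. The tests of the difference between types had the animal as a block. They measure the spread left after it, with 2 residual degrees of freedom. Shares of cells were compared with exact permutation tests (SciPy 1.17.1). Doublets were searched for by simulated doublets with 20 neighbours and kept in the main analysis.

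Genes were named by rule: all rule genes, the 12 highest and 12 lowest between types, up to 4 members of each list, all called genes up to 15, the 5 smallest p of each direction where fewer than 10 were called, all called interaction genes up to 10, and 15 fixed stress and astrocyte genes. Further list members named in the text were chosen after their values were seen. Alternatives were DESeq2, its size factors, no filter on low counts, the replicate block, an excess of 2 rule genes, none of the excluded markers, no marked doublets, thinned cells, a 10% mitochondrial limit and leaving out each animal. The analysis without cells carrying other types' markers, and 2 further scalings of the ratios, were chosen after seeing the data. Most small nucleolar RNA host genes are not analysed here, and some genes that the naming rule selects are not reported here. Intervals and limits from counts cover counting error only.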

Additional observations from a re-analysis of the deposited data

Results flagged for a closer look

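For 10 genes the inhibitor contrast of Agt-type astrocytes differed from that of another astroglial type by the test of the difference itself (edgeR, with the animal as block). Differences are in log2, contrast of members minus contrast of the other type, and UMIs are given in the order without inhibitors replicates 1 and 2, then with inhibitors replicates 1 and 2. Lyz2 had a difference of 3.45 (adjusted p = 0.0411) from telencephalic-type cells, with 5, 66, 6 and 9 UMIs in members and 2, 9, 17 and 9 in telencephalic-type cells. The same animal that held 66 of these UMIs held 16 of the 31 members with microglial markers, and the part of those cells in the result was not tested.

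The other 9 genes differed from Gdf10-positive astroglia, of which each animal held 40 to 58 cells. Hba-a2 had 5.99 (adjusted p = 1.45e-07), with 2044, 485, 8 and 12 UMIs in members and 4, 11, 3 and 8 in Gdf10-positive cells. Hba-a1 had 5.93 (adjusted p = 1.74e-11), with 2828, 606, 4 and 15 and 9, 13, 2 and 9 UMIs. The neuronal long noncoding RNA Snhg11 had 5.0 (adjusted p = 0.0268), with 23, 4, 1 and 0 and 4, 6, 13 and 7 UMIs. Ifi27l2a, an interferon-responsive gene, had 4.14 (adjusted p = 1.46e-07), with 18, 18, 25 and 0 and 2, 5, 89 and 10 UMIs. Slc4a10, a bicarbonate transporter, had 3.30 (adjusted p = 0.0440), with 15, 0, 2 and 1 and 42, 54, 118 and 134 UMIs. Cd74, the invariant chain of antigen presentation, had -4.0 (adjusted p = 0.0295), with 0, 3, 56 and 1 and 9, 21, 20 and 13 UMIs. Vtn, vitronectin, had -2.94 (adjusted p = 0.00328), with 49, 8, 117 and 4 and 23, 2, 5 and 3 UMIs. Crip1 had -2.15 (adjusted p = 0.0123), with 51, 54, 74 and 58 and 19, 23, 4 and 10 UMIs. Nnat, neuronatin, had -1.73 (adjusted p = 1.56e-06), with 464, 582, 545 and 595 and 56, 225, 46 and 48 UMIs. In members 1 animal held most UMIs of Lyz2, Hba-a1, Hba-a2, Snhg11, Cd74, Slc4a10 and Vtn. In the members' own inhibitor contrast the edgeR adjusted p was 0.974 for Lyz2, 0.989 for Vtn and 0.899 for Hba-a1 and Hba-a2. For these genes the difference between types was thus called without a called contrast in members. For Nnat and Crip1 the members' UMIs came from all 4 animals. Relative to member totals, Nnat was at 1473, 1648, 2010 and 2246 CPM and Crip1 at 162, 153, 273 and 219 CPM. Both were lower without inhibitors, with log2 fold changes of -0.45 and -0.64 that were not called (edgeR adjusted p = 0.899 each). In Gdf10-positive cells 1 animal held 225 of the Nnat UMIs.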

How the results depend on the processing

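Agt-type over telencephalic-type: 370 genes were higher and 720 lower in all 4 animals. The higher count was 236 with an excess of at least 2 rule genes, 187 with cells thinned to 1000 UMIs, 143 at a mitochondrial limit of 10% and 213 without cells carrying other types' markers, and 464 to 501 with 1 animal left out. The lower count was 286 after thinning and 884 to 934 with 1 animal left out. Of 114 named ratios, 44 moved beyond the spread between animals with an excess of at least 2 rule genes, 37 at the 10% limit and 23 after thinning. Further such counts were 22 without cells carrying other types' markers, 12 with none of the excluded markers and 1 without marked doublets. These counts leave out the changes of sign given next. CPM of total UMIs and DESeq2 size factors left all 114 within that spread. Under the other settings 8 log2 ratios changed sign or fell to 0, by a cause that was not tested: P2ry12 (0 with none of the excluded markers), Hsp90ab1 (-0.048) and Hsp90aa1 (-0.21, and -0.18 after thinning), Mobp (-0.028), Mbp (-0.0059) and Mia (-0.50) without cells carrying other types' markers, Tmem212 (-0.020 after thinning) and Egfr (-0.038 at the 10% limit).

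In the inhibitor contrast of members, 0 genes were called in either direction. Higher calls became 3 with DESeq2, 5 without the filter on low counts, 1 in cells without other types' markers and 1 to 10 with 1 animal left out. Lower calls became 7 without the filter and 3 to 11 with 1 animal left out. With the replicate number as a block, 5 were higher and 6 lower in members and 4 higher and 4 lower in telencephalic-type cells. In members these included Gmppa, Gm26917 and Gpcpd1 (higher) and Fam183b, Hipk1 and Mbp (lower), with adjusted p of 0.0395, 0.0438, 0.0438, 0.0274, 0.0457 and 0.0438. Hba-a1, Hba-a2 and Hbb-bs were called without either animal without inhibitors, Gpcpd1 without the second animal with inhibitors, and Fam183b without the second animal without or the first with inhibitors. Same-numbered animals correlated at 0.157 over 3591 genes, and 2 pairs do not establish that the numbers pair the animals. In telencephalic-type cells the higher calls (0) became 7 without the filter, 1 after thinning, 1 at the 10% limit, 2 without cells carrying other types' markers and 3 to 28 with 1 animal left out, and the lower calls (0) became 4 without the filter, 4 with none of the excluded markers and 3 to 18 with 1 animal left out. The single gene with a larger contrast than in telencephalic-type cells became 2 with DESeq2, without the filter and after thinning, 3 at the 10% limit, 0 with DESeq2 size factors, with an excess of at least 2 rule genes, without marked doublets and without cells carrying other types' markers, and 0 to 8 with 1 animal left out. The smaller contrasts (0) became 1 without the filter, 4 with none of the excluded markers, 1 without cells carrying other types' markers and 0 to 6 with 1 animal left out. A lone animal of a group was assumed to vary like the other group. Cldn5 had log2 fold changes of -1.15 to 2.31 with 1 animal left out, called at 2.31 without the first animal with inhibitors, against -0.28 over 4 animals.

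The difference in the share of filtered cells (2.21 points) was 1.60 with an excess of at least 2 rule genes, 3.02 with none of the excluded markers and 1.74 to 2.69 with 1 animal left out. Among astroglia (2.74 points) it was 5.31 at the 10% limit and 0.606 to 4.87 with 1 animal left out. With 2 animals a group, and fewer than 20 UMIs per animal for most transcription factors and immediate early genes, depth limits what could be called.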

Other observations

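A subset of members carried olfactory ensheathing glia genes. The 21 members with at least 2 of the 5 ensheathing markers came from replicates 1 of both groups, 11, 0, 10 and 0 per animal. Frzb, itself among the 5 markers, was detected in the same numbers of members per animal. Of the 21 cells with Frzb, 14 had an excess of 1 Agt-type gene and 14 had 1 Agt-type gene detected, which is the smallest number the rule allows. The summed level of the 5 markers over all members was 1429, 43.7, 1429 and 48.9 CPM, and 23.1, 26.6, 34.6 and 21.7 CPM without the 172 cells with other types' markers. Those cells were chosen in part by these 5 markers. Npy was at 1284, 41.0, 1148 and 42.5 CPM in members, Fabp7 at 1492, 330.4, 2604 and 262 CPM and the growth factor pleiotrophin (Ptn) at 2961, 1024, 3262 and 1047 CPM, each higher in both animals numbered 1. Over whole libraries Frzb was detected in 40, 10, 35 and 2 filtered cells.

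Foxj1, the master regulator of motile cilia, was at 132, 87.4, 192 and 173 CPM in members, and Ccdc153 at 269.8, 336, 377 and 492 CPM. The 30 members with ependymal markers were spread over all 4 animals. The transthyretin gene Ttr, a choroid plexus product, was at 9049, 4057, 1737 and 3209 CPM in members.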
